A study of Mus musculus with 8 samples.

Results

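Mx1, Rsad2 (viperin), Cmpk2, Ifi44, Samhd1, Bst2 (tetherin), Ifi27l2a, Ifi35 and Ly6e are interferon-stimulated genes (ISGs) whose proteins act against viruses inside the cell or at its membrane. They were chosen by symbol, together with Mx2. Of the 10 listed genes, 9 had a row among the 27998 genes of the count tables, and Mx2 was not analysed here. The data are single-cell RNA profiles of hematopoietic stem and progenitor cells (HSPCs) from the bone marrow of 16 wildtype mice aged 12 to 14 weeks. Lineage-negative cKit+ (LK) cells were sorted, and LK CD150+CD48-CD34- hematopoietic stem cells (HSCs) were added to enrich this rare population. Under the skin, mice received either 100 µl PBS (control) or recombinant IFNα at 50000 IU per 20 g of body weight, and cells were collected 3, 24 or 72 h posttreatment, from 4 mice at each time point. The comparison asks how far, in which cells and for how long these genes respond to a single dose of IFNα.

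Cells detect type I interferon through the receptor pair IFNAR1 and IFNAR2, whose kinases activate transcription factors of the STAT family. A complex of these with IRF9 binds the interferon-stimulated response element, which is found near the start of many ISGs. The members act at different steps of a virus life cycle. Mx1 is a dynamin-like GTPase that traps viral ribonucleoprotein, although in most inbred laboratory strains, C57BL/6 among them, the gene carries a deletion and makes no functional protein. Viperin converts CTP into a chain terminator of viral RNA polymerases, and Cmpk2 is the nucleotide kinase encoded beside it. Samhd1 degrades deoxynucleotides and so starves reverse transcription. Tetherin holds budding virions at the plasma membrane, and Ly6e is a surface protein that restricts the entry of some enveloped viruses. The molecular roles of Ifi44, of Ifi27l2a (a small membrane protein of the ISG12 family) and of Ifi35 (a partner of Nmi) are less well defined. Stem cells are known for expressing some ISGs without any added interferon.

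The 9 genes lie on 7 chromosomes of the mm10 (GRCm38) assembly. In the GENCODE annotation of this assembly, Rsad2 (ENSMUSG00000020641, chr12:26442746-26456452, minus strand) and Cmpk2 (ENSMUSG00000020638, chr12:26469204-26479837, plus strand) are neighbors transcribed away from each other, with 12752 bases between their starts. Ifi27l2a (ENSMUSG00000079017, chr12:103442167-103443680, minus strand) lies on the same chromosome. Mx1 (ENSMUSG00000000386) is at chr16:97447035-97462907, Ifi44 (ENSMUSG00000028037) at chr3:151730922-151749960, Samhd1 (ENSMUSG00000027639) at chr2:157097533-157135265 and Bst2 (ENSMUSG00000046718) at chr8:71534255-71537456, all on the minus strand. Ifi35 (ENSMUSG00000010358, chr11:101448407-101458698) and Ly6e (ENSMUSG00000022587, chr15:74955051-74959905) are on the plus strand. All 9 are annotated as protein-coding.

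RefSeq promoters on GRCm38.p6 matched 6 of the members (Rsad2, Cmpk2, Ifi44, Samhd1, Bst2 and Ifi35), and the 250 bases before each start were searched on both strands. The letters GAAANNGAAA, the core of the interferon-stimulated response element, were found before Rsad2 and Bst2 and in 978 of all 32851 promoters searched in the same way (2.98%). The 150 bases before these 2 starts are shown, written 5′ to 3′ on the strand of the gene, with the bases matching this core in capitals, because they are the members whose windows held the core and lay wholly outside the GENCODE gene.
Rsad2 (chr12:26456453-26456602, minus strand): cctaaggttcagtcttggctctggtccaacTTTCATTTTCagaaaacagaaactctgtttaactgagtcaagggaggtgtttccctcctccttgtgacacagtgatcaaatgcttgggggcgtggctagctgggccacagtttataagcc
Bst2 (chr8:71537473-71537622, minus strand): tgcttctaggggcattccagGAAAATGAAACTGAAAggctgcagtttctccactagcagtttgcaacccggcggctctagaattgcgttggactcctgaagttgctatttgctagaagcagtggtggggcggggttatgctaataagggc

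The match of Rsad2 lay 120 to 111 bases before the start and reads on the opposite strand. The capitals of Bst2 are a pair of overlapping matches at 130 to 121 and 124 to 115 bases. The letters TTCNNNGAA, the core of the gamma-activated site, occurred in 2306 of the 32851 promoters (7.02%), and among the members before Bst2 (136 to 128 bases, overlapping its first response element match) and Samhd1 (235 to 227 bases). No match to the response element core was found in the windows of Cmpk2, Ifi44, Samhd1 and Ifi35, whose last 11, 50, 169 and 5 bases lie inside the gene as GENCODE annotates it. A match or its absence describes only these letters in this window.

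The 4 mice of each time point carried different hashtag antibodies and shared 1 droplet library, so that the time point and its library cannot be told apart. The filters kept 2474 control cells, 1661 at 3 h, 3462 at 24 h and 2449 at 72 h, with medians of 18964.5, 12017, 18953.5 and 14763 unique molecular identifiers (UMIs) per cell. Hashtag-negative barcodes made up 17.2% of the 3 h library and at most 5.45% of the others. At most 2 kept barcodes of a library also occurred in another. Control mouse 4 had 58 kept cells and 1102706 UMIs, the fewest of all mice, and the other mice had up to 1240 cells and 26446327 UMIs. In all, 5 classes were named from marker genes, HSC-like, lympho-myeloid (LMPP-like), myeloid progenitor-like, erythroid progenitor-like and megakaryocyte (MK) progenitor-like. All listed HSC markers, like those of the other classes, had UMIs at every time point. This was counted over all kept cells and not within a class. The members, the other antiviral effectors and the interferon receptor and factor genes described below were left out of the genes for clustering and label transfer. Ly6a (Sca-1), which rose at 3 h, was not left out. It was a naming marker of the HSC-like class, as Irf8 was of the myeloid class. In control, 62.4% of HSC-like cells came from cluster 3, whose leading genes held 2 HSC-like and 2 LMPP-like markers (Wfdc17 and Dntt). Leading genes of the LMPP-like cluster held 3 LMPP-like markers and 2 of basophil, mast cell and eosinophil progenitors (Ms4a2 and Cpa3). With interferon genes kept for clustering, a cluster led by Wfdc17 and Dntt that also had Hlf was named LMPP-like. Under that setting, 66.4% of treated cells kept their class. Marker lists of mature neutrophils, macrophages and stroma summed to at most 15.7 CPM in any mouse. The T and NK cell list summed to 341 to 621 CPM in control mice and 291 to 388 CPM at 3 h, nearly all of it Nkg7 (means of 519 and 329 CPM), with Cd3e, Cd3g and Gzma at 0 at 3 h. The B and plasma cell list summed to 43.5 to 207 CPM in control mice and 31.6 to 34.5 CPM at 3 h, mostly Jchain (0.907 to 152 CPM in control mice) and Cd79b, with Ms4a1 among those at 0 at 3 h. The part of these lists in the results was not tested. The summed level of the plasmacytoid dendritic cell list, a cell type with high ISG expression, lay between 8.13 and 22.6 CPM in all mice (CPM, UMI counts relative to the total of a library). Most of this sum was Cox6a2 and Lag3, and Klk1 was the only gene of the list at 0 in every library. Lag3 was higher in every 3 h mouse than in every control mouse. The part of this list in the results was not tested either.

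Over the whole compartment, 8 of the 9 members were called higher at 3 h from the summed UMIs, with all 4 treated mice above all 4 control mice for each of the 9. How many of all genes tested separate the mice in this way was not counted. The called rises ranged from 3.71-fold for Samhd1 to 112-fold for Mx1. A gene was called changed when the p of edgeR's quasi-likelihood test, adjusted after Benjamini and Hochberg over all 12042 genes tested, was under 0.05 and the absolute log2 fold change over 1, and 5.21% of all tested genes were called higher at 3 h (1.64% lower). Ly6e had an adjusted p of 2.5e-21 but a fitted change of 1.83-fold, under the limit. At 24 h, 5 members were still called higher, against 1.46% of all genes (0.706% lower). At 72 h, 0 were called higher or lower by edgeR's quasi-likelihood test, and also 0 by its likelihood ratio test and by DESeq2, while at an unadjusted p under 0.05 in the quasi-likelihood test 0 members were higher and 4 lower. At this time, 1.68% of all genes were called higher and 1.1% lower, by the adjusted p and the size limit. The share of all genes under the unadjusted threshold was not counted, here or below. The median log2 fold change of the members against control was 2.61 at 3 h, 1.09 at 24 h and -0.16 at 72 h, beside -0.03, 0.00 and 0.02 for all genes tested. All comparisons with control share the same control mice. These sums cannot tell fewer cells of a type from less RNA per cell. With scaling by library size in place of TMM factors, the median of all genes at 3 h moved from -0.03 to -0.18, and the counts of members called were the same.

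**Figure D1:**
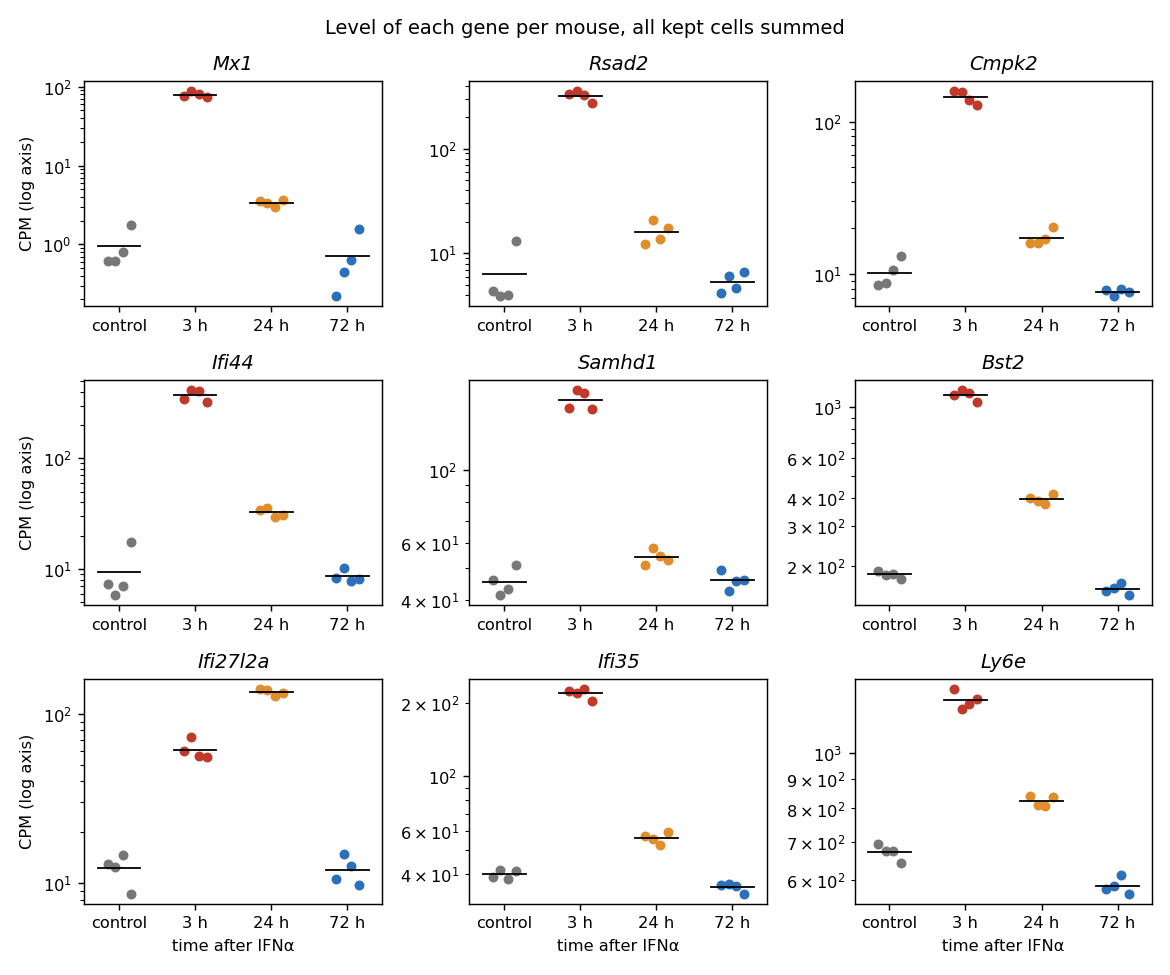
Levels of the 9 members in the whole compartment, in CPM on log axes that differ between panels, for single mice (points, 4 per group) with the group mean (line), for control and 3, 24 and 72 h posttreatment. All panels peak at 3 h except that of Ifi27l2a, where the 24 h mice (128 to 141 CPM) lie above the 3 h mice (55.7 to 72.6 CPM).

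Mx1 was close to undetected without treatment. Control mice 1 to 4 had 0.622, 0.625, 0.798 and 1.74 CPM, from 40 UMIs in all, and the 3 h mice had 77.2, 87.6, 80.2 and 73.7 CPM. The levels were 3.53, 3.35, 3.02 and 3.61 CPM at 24 h and 0.221, 0.449, 0.626 and 1.56 CPM at 72 h. All 3 h and 24 h mice lay above all controls, whereas the 72 h mice overlapped with them. The log2 fold changes were 6.80 (SE 0.16, adjusted p = 8.3e-25) at 3 h, 2.25 (SE 0.24, adjusted p = 1.7e-08) at 24 h and -0.04 (adjusted p = 0.945) at 72 h in edgeR's quasi-likelihood test. At 72 h the sign of this value depended on single mice.

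Rsad2 and Cmpk2, the neighboring pair of nucleotide-processing enzymes, peaked together but not to the same extent. Rsad2 stood at 4.35, 3.92, 4.04 and 13.1 CPM in control mice 1 to 4, at 333, 353, 326 and 274 CPM at 3 h, at 12.2, 20.6, 13.8 and 17.5 CPM at 24 h and at 4.21, 6.06, 4.65 and 6.61 CPM at 72 h. Control mouse 4 had the highest control level and overlapped with the 24 h mice. Cmpk2 was measured at 8.45, 8.80, 10.6 and 13.1 CPM in control and at 158, 157, 139 and 129 CPM at 3 h. It was at 15.94, 15.96, 17.01 and 20.47 CPM at 24 h and 7.89, 7.18, 7.95 and 7.58 CPM at 72 h, so that the 24 h mice were above and the 72 h mice below all controls. The rise of Rsad2 was 74.1-fold (log2 6.21, SE 0.20, adjusted p = 1.6e-11) and that of Cmpk2 15.5-fold (log2 3.95, SE 0.09, adjusted p = 3.4e-23). At 24 h, Rsad2 was still called higher (log2 1.93, SE 0.23, adjusted p = 5.2e-05), while Cmpk2 was at a log2 fold change of 0.89 (adjusted p = 1.5e-07), under the limit.

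Ifi44 had the largest rise after Mx1 and Rsad2. It was at 7.25, 5.85, 7.02 and 17.4 CPM in control mice 1 to 4 and at 343, 414, 407 and 322 CPM at 3 h. The 24 h mice had 34.2, 35.7, 29.4 and 31.1 CPM, all above control, and the 72 h mice 8.26, 10.2, 7.78 and 8.16 CPM, within the control range. The log2 fold changes were 5.73 (SE 0.15, adjusted p = 3.9e-13) at 3 h and 2.22 (SE 0.16, adjusted p = 1.9e-07) at 24 h.

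Samhd1, the deoxynucleotide triphosphohydrolase, was readily detected before treatment and was close to its control level at 24 h. Its levels were 46.2, 41.6, 43.4 and 51.3 CPM in control, 154, 175, 172 and 153 CPM at 3 h, 51.3, 57.6, 54.7 and 53.2 CPM at 24 h and 49.4, 42.8, 45.8 and 46.2 CPM at 72 h. The 3 h mice stood apart from all others, and the 24 h and 72 h mice overlapped with control. Its log2 fold change was 1.89 (SE 0.06, adjusted p = 5.5e-23) at 3 h and 0.30 (adjusted p = 0.000239) at 24 h.

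The genes of the membrane proteins Bst2 and Ly6e had the highest control levels of the members, and Ly6e had the smallest fold at 3 h. Bst2 was at 191, 183, 185 and 177 CPM in control mice, 1140, 1193, 1153 and 1052 CPM at 3 h, 400, 386, 376 and 417 CPM at 24 h and 156, 161, 169 and 150 CPM at 72 h. None of these 4 ranges overlapped. Bst2 rose 6.12-fold at 3 h (log2 2.61, SE 0.04, adjusted p = 1.2e-30), was still called higher at 24 h (log2 1.09, SE 0.04, adjusted p = 1.3e-19), and lay below control at 72 h by a log2 value of -0.22 (adjusted p = 0.000158), which is under the size limit. Ly6e was at 693, 675, 674 and 644 CPM in control, 1294, 1192, 1215 and 1242 CPM at 3 h, 841, 810, 808 and 837 CPM at 24 h and 579, 587, 613 and 569 CPM at 72 h. Its ranges did not overlap either, and its log2 fold changes of 0.87, 0.29 and -0.20 (adjusted p = 2.5e-21, 1.4e-08 and 8.9e-06) were all under the limit. The class means of Ly6e in control and at 72 h were 491 and 507 CPM (HSC-like) and 776 and 821 CPM (LMPP-like). They were 837 and 774 CPM in myeloid, 313 and 292 CPM in erythroid and 405 and 388 CPM in MK progenitor-like cells.

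Ifi35, a binding partner of Nmi, was also detected before treatment and had its highest level at 3 h. It was at 38.7, 41.3, 38.0 and 40.9 CPM in control, 224, 219, 228 and 203 CPM at 3 h, 56.8, 55.4, 52.6 and 59.5 CPM at 24 h and 36.0, 36.2, 35.7 and 33.1 CPM at 72 h. The treated mice were above all controls at 3 h and 24 h and below them at 72 h. The fitted log2 fold changes were 2.47 (SE 0.05, adjusted p = 1.3e-27), 0.51 (adjusted p = 5.6e-09) and -0.16 (adjusted p = 0.0262).

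Ifi27l2a was the member with the later peak. Control mice 1 to 4 had 12.95, 12.55, 14.74 and 8.70 CPM, and the 3 h mice had 60.2, 72.6, 56.4 and 55.7 CPM. The 24 h mice reached 141, 138, 128 and 133 CPM, before the level was back at 10.55, 14.81, 12.69 and 9.72 CPM at 72 h. The ranges of control, 3 h and 24 h mice did not overlap, and those of control and 72 h mice did. It rose 4.58-fold at 3 h (log2 2.20, SE 0.11, adjusted p = 2.4e-13) and was 10.2-fold above control at 24 h (log2 3.34, SE 0.09, adjusted p = 1.5e-16).

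Between 3 h and 24 h, 7 members were called lower and Ifi27l2a higher. The falls were -4.55 for Mx1, -4.28 for Rsad2, -3.51 for Ifi44, -3.06 for Cmpk2, -1.96 for Ifi35, -1.59 for Samhd1 and -1.52 for Bst2 on the log2 scale, and Ly6e was at -0.58. Of all genes tested, 2.95% were called lower in this comparison. Ifi27l2a was higher at 24 h than at 3 h by a log2 fold change of 1.15 (SE 0.08, adjusted p = 4.8e-10 in edgeR's quasi-likelihood test), with every 24 h mouse above every 3 h mouse, and 0.573% of all genes were called higher. From 24 h to 72 h, 6 members were called lower, as were 0.623% of all genes. The largest of these falls was that of Ifi27l2a (-3.51), followed by Mx1 (-2.29), Ifi44 (-1.94), Rsad2 (-1.64), Bst2 (-1.31) and Cmpk2 (-1.18), while Ifi35 (-0.67), Ly6e (-0.49) and Samhd1 (-0.23) stayed under the limit.

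The same genes were then tested within each class, with the UMIs of a mouse summed over the cells of the class and mice with at least 10 cells included. There were 460 HSC-like cells in the control library and 573, 906 and 797 in those of 3, 24 and 72 h. Their share was larger in the treated libraries. Cluster 3 held 11.6% of kept cells in control and 22.2%, 17.0% and 22.2% at 3, 24 and 72 h. Cluster 9 held 6.99%, 12.3%, 9.21% and 10.3% in the same order. The part of this shift in the whole-compartment changes was not tested. Control mouse 4 contributed 13 of the HSC-like cells, and it was missing from the erythroid and MK progenitor-like classes, where control is 3 mice. At 3 h, all 9 members were called higher in the HSC-like, erythroid progenitor-like and MK progenitor-like classes. Control had 0 UMIs of Mx1 and 1 of Ifi27l2a in erythroid cells, and 1 of Mx1 in MK cells. There, these members passed the filter on low counts only through treated mice, so that their calls add little to the counts of 9. In the LMPP-like and myeloid progenitor-like classes 8 of 9 were called, and Ly6e had log2 fold changes of 0.76 and 0.44. Of all genes tested in each class, 4.16% (HSC-like), 3.45% (LMPP-like), 3.4% (myeloid), 4.1% (erythroid) and 3.48% (MK) were called higher at 3 h.

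**Figure D2:**
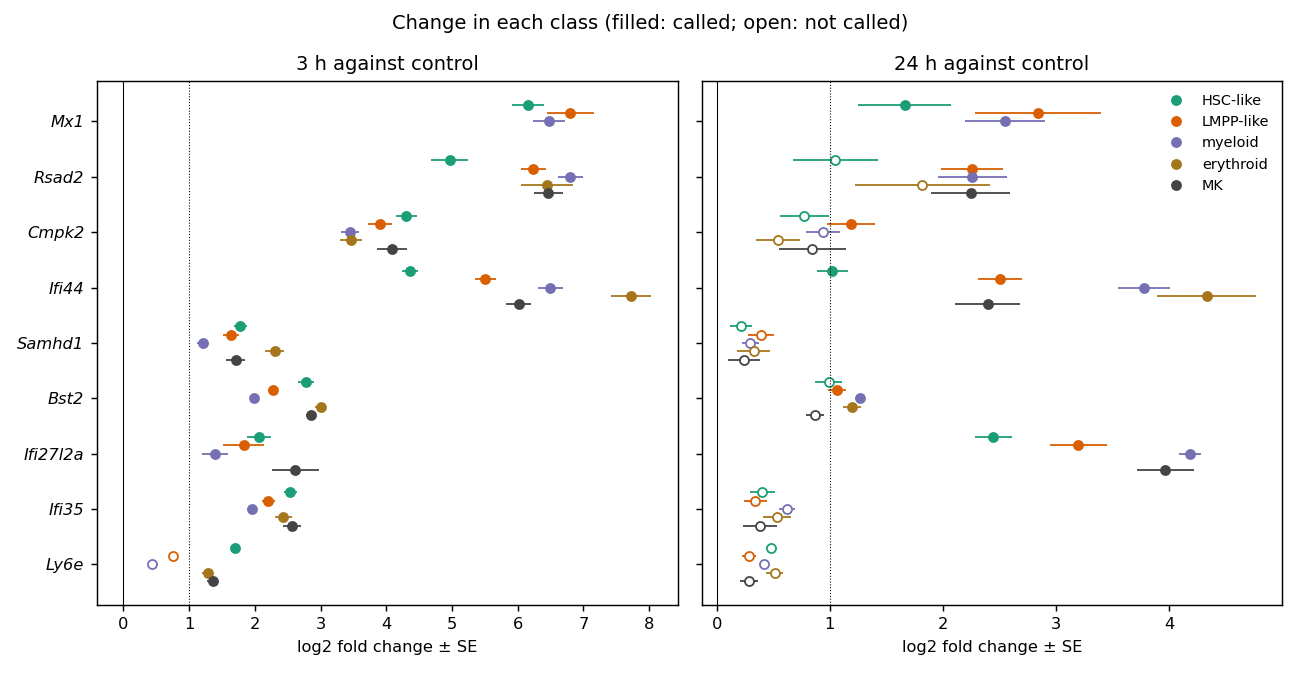
Fitted log2 fold change against control of each member (rows) in the 5 classes (colors) at 3 h (left) and 24 h (right) posttreatment, with standard errors as bars, filled points for called changes and a dotted line at the limit of 1. Points for Mx1 and Ifi27l2a in the erythroid progenitor-like class and for Mx1 in the MK progenitor-like class are left out because control had 3 UMIs or fewer, and the 24 h value of Ifi27l2a lies above its 3 h value in every class shown.

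In HSC-like cells, the folds at 3 h reached 71.6 for Mx1, 31.2 for Rsad2, 20.5 for Ifi44 and 19.8 for Cmpk2. The fold of Mx1 starts from 11 control UMIs, with control mice between 1.30 and 14.8 CPM (mean 4.91 CPM) and a 3 h mean of 143 CPM. Ifi44 was at 45.1, 32.5, 43.9 and 111 CPM in control mice 1 to 4 and at 849, 926, 924 and 826 CPM at 3 h, then at 95.2, 93.4, 74.9 and 86.4 CPM at 24 h and 24.6, 33.9, 24.8 and 24.1 CPM at 72 h. Rsad2 was at 15.9, 18.8, 13.5 and 96.1 CPM in control, 562, 646, 542 and 504 CPM at 3 h, 23.3, 50.6, 25.5 and 40.2 CPM at 24 h and 9.51, 11.5, 7.56 and 13.9 CPM at 72 h. The 13 HSC-like cells of control mouse 4 stood apart for both genes and also for Bst2, at 451 CPM beside 203 to 218 CPM in the other controls. Ly6e, under the limit in the whole compartment, rose 3.23-fold in HSC-like cells at 3 h, from 526, 457, 484 and 495 CPM to 1673, 1531, 1515 and 1621 CPM (log2 1.69, SE 0.05).

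**Figure D3:**
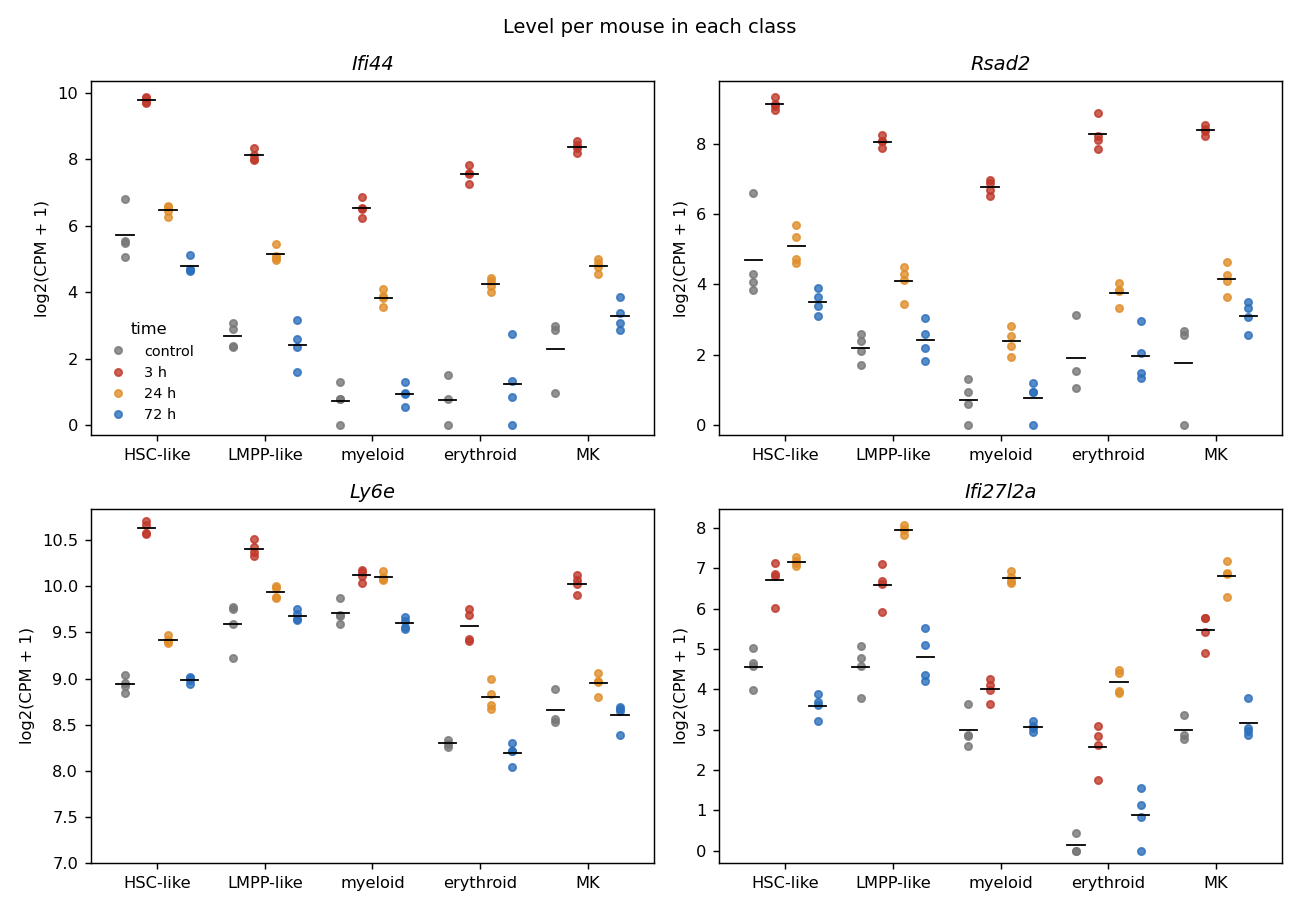
Mean level of Ifi44, Rsad2, Ifi27l2a and Ly6e (panels) by class and time point, as log2 of CPM + 1 for single mice (points) with their mean (line), where the axis of Ly6e starts at 7. Ifi44 was highest in the HSC-like class, with means of 58.1 CPM in control and 881 CPM at 3 h.

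At 24 h, the members called were not the same in every class, which is not itself a test of a difference between classes. Bst2, for example, was called in LMPP-like but not in HSC-like cells, and its change differed between them by a log2 value of 0.00 (SE 0.36). In HSC-like cells, 3 members were called higher (Mx1 1.66, Ifi44 1.02 and Ifi27l2a 2.44 on the log2 scale), against 0.502% of all genes, and this count was 5 without control mouse 4 and 1 with DESeq2. The call of Ifi44 was at the limit and was lost, at 0.93, with DESeq2, and at 0.84 with interferon genes kept for clustering. In LMPP-like cells, 6 members were called higher, with Ifi27l2a (3.19), Mx1 (2.84) and Ifi44 (2.50) leading, against 0.802% of all genes, and the calls of Rsad2 (1.10) and Cmpk2 (0.70) were lost with interferon genes kept for clustering. In myeloid progenitor-like cells, 5 were called higher, Ifi27l2a (4.18, 18.1-fold), Ifi44 (3.77), Mx1 (2.55), Rsad2 (2.26) and Bst2 (1.26), against 1.04%. The erythroid progenitor-like class had 3 (Ifi44 4.33, Bst2 1.20 and Ifi27l2a), against 1.57%, and this count was 5 without 3 h mouse 1. Its Ifi44 value starts from 6 control UMIs and ranged from 3.81 to 5.30 without single mice. The MK progenitor-like class also had 3, Ifi27l2a (3.96), Ifi44 (2.39) and Rsad2 (2.24), against 0.457%. Ifi44 and Ifi27l2a were thus called at 24 h in all 5 classes, although the erythroid call of Ifi27l2a starts from 1 control UMI. The Mx1 values of HSC-like, LMPP-like and myeloid progenitor-like cells start from 11, 4 and 14 control UMIs.

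At 72 h, 0 members were called higher in any class by edgeR's quasi-likelihood test, its likelihood ratio test or DESeq2. Among all genes, 0.341% (HSC-like), 0.517% (LMPP-like), 0.681% (myeloid), 0.561% (erythroid) and 0.411% (MK) were called higher. At an unadjusted p under 0.05 in the quasi-likelihood test, 0 members were higher among HSC-like, LMPP-like and myeloid cells and 1 each among erythroid and MK cells. The same threshold gave 5 lower members for HSC-like, 3 for LMPP-like and 1 for myeloid progenitor-like cells. The percentages of all genes above are for calls and not for this threshold. In HSC-like cells, Ifi27l2a fell below its control level, from 23.0, 24.0, 31.4 and 14.8 CPM to 11.1, 13.8, 11.8 and 8.33 CPM at 72 h (log2 -1.22, SE 0.25, adjusted p = 0.0029 in edgeR's quasi-likelihood test). All 72 h mice lay below all controls, and 0.381% of all genes were called lower in this comparison. With interferon genes kept for clustering, the log2 value was -1.97 and was not called.

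The late peak of Ifi27l2a differed in size between classes. Its class means in control, at 3 h, 24 h and 72 h were 7.25, 15.2, 107 and 7.44 CPM in myeloid progenitor-like cells. In LMPP-like cells the means were 23.6, 98.4, 246 and 28.8 CPM, and in MK progenitor-like cells 7.12, 44.2, 113 and 8.24 CPM. HSC-like cells had 23.3, 107, 142 and 11.3 CPM, so that the 24 h mice (139, 132, 143 and 155 CPM) overlapped with the 3 h mice (110, 139, 114 and 63.8 CPM). In the direct comparison of 24 h with 3 h, Ifi27l2a was called higher in the myeloid (log2 2.79), erythroid (1.62), LMPP-like (1.36) and MK (1.35) classes, and was at 0.39 in HSC-like cells. In these tests, 0.547%, 0.354%, 0.728% and 0.183% of all genes were called higher, and 1.04% in HSC-like cells. In the myeloid class at 3 h, 1 treated mouse (11.4 CPM) lay below the highest control mouse (11.5 CPM).

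Some control levels were too low for a fitted fold. Erythroid progenitor-like cells of control had 0 Mx1 UMIs among 7047629, against 118 among 2507133 at 3 h, which is at least 111-fold higher when 3 counts are taken for the control group, and at least 3.63-fold higher at 24 h. Of the 13 UMIs at 24 h, 9 came from mouse 1, and without it the bound was 1.35-fold. For Ifi27l2a in this class, 1 control UMI gave ratios of 36.5 at 3 h (exact 95% counting interval 5.49 to 1553) and 126 at 24 h (22.4 to 5028). For Mx1 in MK progenitor-like cells, 1 control UMI gave 192 at 3 h (33.8 to 7635) and 5.39 at 24 h (0.798 to 231), which was 2.94 without 24 h mouse 4. The intervals cover counting error only.

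Before treatment, the members differed among the classes most clearly in Ifi44 and Rsad2. Class levels were compared in 1 fit over all mice with a term for the mouse, each class against HSC-like cells in control. The control means of Ifi44 were 58.1 CPM in HSC-like, 5.57 in LMPP-like, 4.74 in MK, 0.864 in erythroid and 0.732 in myeloid progenitor-like cells. The erythroid and myeloid means rest on 6 and 25 UMIs. Rsad2 was at 36.1 CPM in HSC-like cells and at 3.70, 3.44, 3.57 and 0.715 CPM in LMPP-like, MK, erythroid and myeloid cells. Without control mouse 4, the HSC-like means were 40.5 CPM for Ifi44 and 16.1 CPM for Rsad2. Ifi44 was lower than in HSC-like cells by -2.66 (LMPP-like), -2.92 (MK), -5.05 (myeloid) and -5.31 (erythroid) on the log2 scale, and Rsad2 by -2.20, -2.07, -3.85 and -1.94 in the same order. With each mouse left out in turn, the LMPP-like difference stayed between -2.88 and -2.46 for Ifi44 and between -2.68 and -1.96 for Rsad2. With interferon genes kept for clustering, Rsad2 was at -0.24 in LMPP-like and -1.62 in MK cells, and neither was called.

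In total, the control test called 2 members between LMPP-like and HSC-like cells, 4 for the myeloid, 6 for the erythroid and 3 for the MK class, where 14.4%, 28.4%, 40.3% and 10.7% of all genes differed in either direction. Ifi27l2a was lower in myeloid (-1.81) and MK (-1.75) progenitor-like cells. Ly6e, in contrast, was higher in myeloid progenitor-like cells by 1.06, just past the limit, and under it at 0.72 with scaling by library size and between 0.74 and 0.98 under 5 other choices of cells, clusters or label transfer. In erythroid progenitor-like cells, Samhd1 was lower (-1.18) and Cmpk2 higher (1.11) than in HSC-like cells, the latter at 0.84 with scaling by library size and 0.83 without control mouse 1. The other erythroid calls were Mx1 and Ifi27l2a, with 0 and 1 control UMIs.

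The difference of the rise at 3 h between a class and HSC-like cells was tested in the same fit. For Ifi44, the log2 rise exceeded that of HSC-like cells by 3.31 in erythroid (adjusted p = 4.1e-07), 2.03 in myeloid (adjusted p = 7.3e-07), 1.59 in MK (adjusted p = 0.0354) and 1.12 in LMPP-like cells (adjusted p = 0.0141), all from edgeR's quasi-likelihood test. Its level at 3 h was nevertheless highest in HSC-like cells, with 881 CPM beside 332 (MK), 277 (LMPP-like), 189 (erythroid) and 92.5 CPM (myeloid). The control levels of Ifi44 in erythroid and myeloid cells rest on 6 and 25 UMIs. Without single mice, the erythroid difference of Ifi44 ranged from 2.61 to 4.39. Rsad2 rose by 1.73 more in myeloid than in HSC-like cells (adjusted p = 0.0179), from the lower start described above, which rests on 24 control UMIs. Ly6e had a smaller change in myeloid progenitor-like cells, by -1.31 (adjusted p = 2.8e-14), with class means of 837 CPM in control and 1113 CPM at 3 h, beside 491 and 1585 CPM in HSC-like cells. Few genes passed this test, which called 1.03% of all genes in myeloid, 0.892% in erythroid, 0.138% in LMPP-like and 0.046% in MK cells.

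Single mice and the clustering decided part of these calls. With interferon genes kept for clustering, at a Leiden resolution of 0.5 or with cluster 9 alone as the HSC-like class, neither the LMPP-like difference of Ifi44 (0.61, 0.75 and 1.11), nor its MK difference (1.33, 0.76 and 1.63), nor the myeloid difference of Rsad2 (1.39, 1.57 and 1.34) was called. The LMPP-like difference of Ifi44 was 0.91 and not called without control mouse 3, and the MK difference was not called without 3 h mouse 1 or 2 or control mouse 1 or 3. The myeloid difference of Rsad2 was not called without control mouse 1 or 3. The numbers of members called in the 3 h comparison with HSC-like cells ranged from 0 to 2 for LMPP-like cells, where 3 h mouse 3 and control mice 1 and 4 gave 2 when left out, from 2 to 4 for myeloid, 1 to 2 for erythroid and 0 to 1 for MK progenitor-like cells.

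At 24 h, the change of Ifi44 exceeded that in HSC-like cells by 3.26 in erythroid (adjusted p = 6.8e-06), 2.66 in myeloid (adjusted p = 1.6e-09) and 1.43 in LMPP-like cells (adjusted p = 0.00202), and that of Ifi27l2a by 1.71 in myeloid cells (adjusted p = 0.00123), from the same edgeR test. Of all genes, 1.23%, 0.506% and 0.0735% differed in these classes. The erythroid and myeloid changes of Ifi44 start from 6 and 25 control UMIs. For MK cells, 0 members and 0% of all genes were called, with 2 members at an unadjusted p under 0.05, both higher. At 72 h, 0 members were called for any class, with 1 (LMPP-like), 1 (myeloid), 0 (erythroid) and 3 (MK) at an unadjusted p under 0.05, all higher. The myeloid class was made up of different cells over time, with the S100a8 and S100a9 expressing cluster at 24.4% of the class in control and between 7.06% and 9.52% in the treated libraries. The part of this shift in the differences was tested only by leaving that cluster out, which changed no count of members called in the myeloid class by more than 1.5 times.

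The cells with at least 1 UMI of a member were counted after thinning every cell to 5000 UMIs, which left out 35, 61, 35 and 68 cells of control, 3, 24 and 72 h. Ifi44 was found in 5.68% ± 2.10 of control cells (mean over mice, SD, n = 4), 69.7% at 3 h, 15.7% at 24 h and 5.198% at 72 h. Rsad2 was found in 3.05%, 65.0%, 8.26% and 3.18%, and Mx1 in 0.599%, 30.9%, 1.71% and 0.227% of the cells in the same order. Without thinning, Ifi44 was found in 9.40% of control cells and 90.4% at 3 h. Bst2 went from 56.0% to 98.6% at 3 h, and Ly6e from 92.1% to 98.9%. Samhd1 (22.6% and 53.2%), Cmpk2 (4.47% and 45.5%) and Ifi35 (19.2% and 66.3%) lay between these. Ifi27l2a was in 6.15% of control cells, 18.4% at 3 h, 35.3% at 24 h and 5.35% at 72 h. These shares are descriptions without a test.

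**Figure D4:**
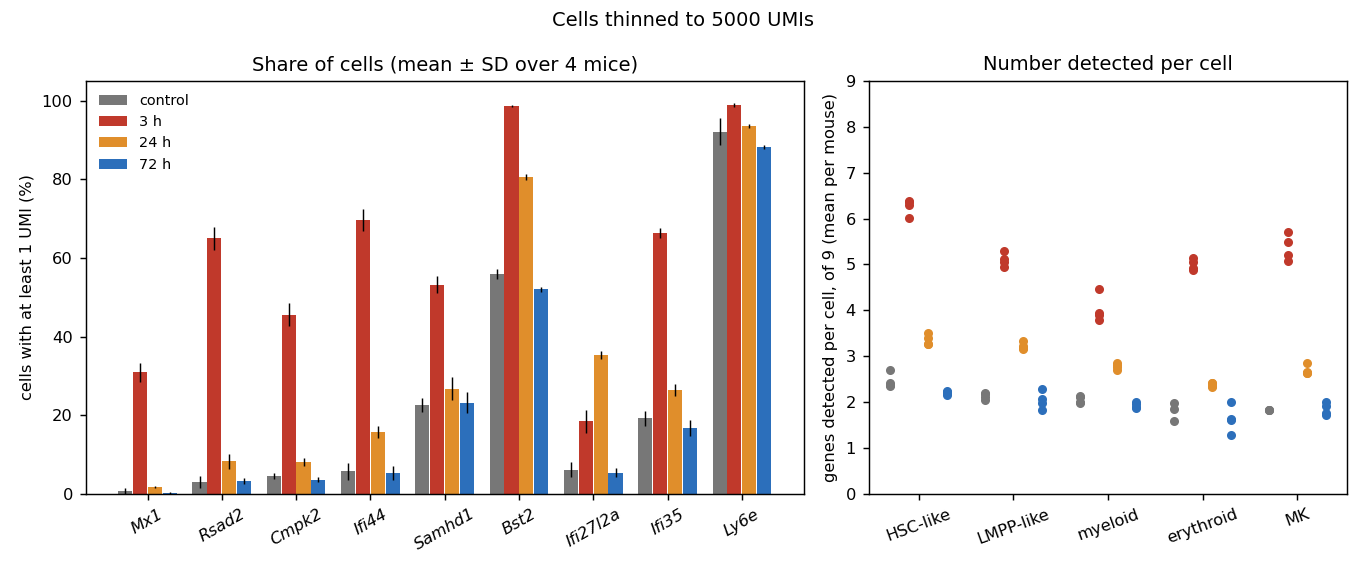
Left, share of cells with at least 1 UMI of each member after thinning to 5000 UMIs per cell, in percent, by time point (bars, mean over 4 mice, with SD). Right, mean number of the 9 members detected per cell, for single mice (points) by class in the same colors. At 3 h the shares on the left ranged from 18.4% for Ifi27l2a to 98.9% for Ly6e.

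Free RNA in the droplets gives some cells a UMI of a gene that they do not express. The myeloid gene Elane, one of the most abundant transcripts of these libraries, had a UMI in 11.4% to 18.0% of erythroid progenitor-like cells at the same depth, and the erythroid gene Hba-a1 in 0.929% to 2.36% of HSC-like cells. The control shares of Mx1, Rsad2 and Ifi44 lie below that of Elane, and that of Mx1 also below that of Hba-a1, while Rsad2 and Ifi44 lie above the latter. Lower than both were their shares in myeloid progenitor-like control cells (0.109%, 0.0984% and 0.425%). In HSC-like control cells, Ifi44 was found in 17.9% ± 3.76 and Rsad2 in 11.5% ± 8.06 of the cells (SD, n = 4). In myeloid progenitor-like cells of the same library the shares were 0.425% and 0.0984%. The HSC-like shares lie above that of Hba-a1 and within the erythroid range of Elane, a far more abundant transcript. Elane itself was found in 32.4% of HSC-like control cells. The part of free RNA in these shares was not tested. At 3 h, Ifi44 was in 94.9% of HSC-like and 30.02% of myeloid progenitor-like cells, and Rsad2 in 77.3% and 39.8%.

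Cells also differed in how many members they showed at once. A cell thinned to 5000 UMIs had on average 2.10 ± 0.084 of the 9 members in control mice and 5.47 ± 0.151, 2.97 ± 0.032 and 1.98 ± 0.043 at 3, 24 and 72 h (mean over mice, SD, n = 4 each). At least 5 members were found in 2.13%, 70.3%, 9.38% and 1.17% of the cells. In HSC-like cells at 3 h this share was 88.7% ± 3.26 and in myeloid progenitor-like cells 33.8% ± 12.5 (SD, n = 4 each), with 6.27 and 4.02 members per cell. LMPP-like (62.9%), erythroid (62.8%) and MK progenitor-like cells (67.6%) lay between them. Without thinning, at least 5 members were found in 96.4% of HSC-like and 97.5% of myeloid progenitor-like cells at 3 h. The order of these classes in this share thus rests on the common depth. Members per cell, at 7.20 and 6.82, kept their order without thinning, with a smaller difference.

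The neighbors Rsad2 and Cmpk2 were also compared cell by cell. At 3 h, Cmpk2 was found in 53.6% of the 1045 thinned cells with Rsad2 and in 31.0% of the other cells. In control the shares were 13.8% of 58 cells and 3.99%, at 24 h 16.4% and 7.32%, and at 72 h 6.76% and 3.55%. Cells of a mouse are not independent, and these shares pool the mice and classes, so no test was made.

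Across the 16 mice, the log2 levels of 8 members followed each other closely, with Pearson's r between 0.929 and 0.995 for each pair. The r of Ifi27l2a with the others was between 0.443 and 0.713. These values describe 16 points that share 4 libraries, with no test. The genes outside the members with the most similar course were Ifit1 for Mx1 (r = 0.989), Tgtp2 for Rsad2 (0.995), Rnf213 for Cmpk2 (0.994), Ube2l6 for Ifi44 (0.997), Trim30d for Samhd1 (0.997), Dhx58 for Bst2 (0.996) and Ly6e (0.987) and Pttg1 for Ifi35 (0.998). For Ifi27l2a, they were the class I light chain gene B2m (0.944), its relative Ifi27 (0.915) and the histone gene Hist1h2an (0.854). Usp18, the ISG15 protease that also dampens receptor signaling, was among the nearest 3 genes of Mx1, Cmpk2 and Ifi44.

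Of 34 other antiviral effector genes tested, 32 were called higher at 3 h and 18 at 24 h, and at 72 h 1 was called higher and 1 lower. Their median log2 fold changes were 3.80, 1.34 and -0.02. Ifit3 (7.58), Ifit1 (6.88) and Isg15 (6.11) had larger log2 rises at 3 h than most members, while Ifitm2 (0.23) was among those not called. At 72 h, the 2',5'-oligoadenylate synthetase genes Oas1g (1.17) and Oas2 (-1.07) were the calls in opposite directions.

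Of 11 structural relatives of the members that were tested, 4 were called higher at 3 h. These were Ly6a (Sca-1, 3.11), Ly6c1 (2.13), Nmi, the partner of Ifi35 (2.05), and the dynamin-related Dnm1l (1.04). The median of the 11 was -0.03. Cmpk1 (-0.10) and Dtymk (-0.03), the housekeeping nucleotide kinases, Dnm2 (-0.06) and Ifi27 (0.21) were not called. At 24 h, Ly6a was called higher and Ly6k lower (-2.51), and at 72 h Ly6c1 (-1.38) and Ly6c2 (-1.25) were called lower, all in the whole compartment. Within classes at 72 h, 1 relative was called lower in HSC-like cells and 0 in each of the other classes. Cluster 2, with Ly6c2 among its leading genes, held 12.0% of kept cells in control and 6.21% at 72 h. The part of this shift in the falls was not tested.

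Of the 13 genes for the receptor, its kinases, transcription factors and inhibitors, 7 were called higher at 3 h and 1 lower. Among them, Irf7 (5.53), Socs1 (2.97), Stat2 (2.88), Socs3 (2.01), Irf9 (1.51) and Irf1 (1.18) were called higher and Irf8 (-1.12) lower, while the receptor genes Ifnar1 (-0.17) and Ifnar2 (-0.16) were not called. These values are for the whole compartment. Within classes at 3 h, 1 gene of this list was called lower in LMPP-like cells and 0 in each of the other classes. The part of class shares in the fall of Irf8, a myeloid marker, was not tested. At 24 h, 1 of these genes was called, Irf7 (3.07). At 72 h, 0 of the 13 were called by edgeR's quasi-likelihood test, with 3 higher and 3 lower at an unadjusted p under 0.05.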

How the data were processed

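Single-cell RNA libraries (10x Genomics 3′ v3.1) were made from 16 mice, with 4 hashtagged mice in each of 4 libraries. From Cell Ranger 3.1.0 on mm10, the authors deposited raw UMI counts by gene and barcode, with hashtag calls from Seurat. The gene annotation behind the counts is not given in the sources used here. The deposited hashtag tables also hold a margin score per barcode, which was not used.

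Barcodes with a single hashtag, at most 5% mitochondrial UMIs and at least 700 genes were kept. Hashtag multiplets and negatives were removed, and doublets within a mouse remain. Control cells were clustered with Scanpy 1.11.5 and leidenalg 0.10.2 (500 variable genes, 10 components, 15 neighbours, Leiden resolution 0.8). Treated cells took their labels from the nearest control cells. Counts were summed per mouse, or per mouse and class, and tested with edgeR 4.0.16 (R 4.3.3; filterByExpr, TMM, robust quasi-likelihood F test). CPM values use the library total. Mice are separate animals, and the sums hold 1102706 to 26446327 UMIs per mouse. In simulated counts, the fit recovered most of the changed genes, which were drawn from genes above a minimum mean count. Control levels as low as those of some members within classes were not simulated. Correlations used log2 CPM with a prior count of 2. All members were named, with the 3 genes most like each, and genes of the lists where a count needed them. The members and lists were chosen with earlier results of these data known. Alternatives were DESeq2, the likelihood ratio test, library size alone, no filter on low counts, a replicate block, other clustering and transfer settings, no mitochondrial limit, other thinning, Spearman's correlation and each mouse left out. Those using a single HSC-like cluster or leaving out a myeloid cluster were chosen after seeing the data.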

Additional observations from a re-analysis of the deposited data

Results flagged for a closer look

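Single mice that stood apart from the other mice of their group were looked for with Dixon's test in 187 groups of 4 mice (a member in a class at a time point). In all, 19 were found, where chance alone gives about 1 in 20 groups, and 10 of them were control mouse 4, which had 58 cells. In the whole compartment, control mouse 4 was the highest control for Mx1 (1.74 CPM), Rsad2 (13.1 CPM) and Ifi44 (17.4 CPM), and 72 h mouse 4 was the lowest for Ifi35 (33.1 CPM). Among HSC-like cells, control mouse 4 was high for Rsad2 (96.1 CPM), Cmpk2 (44.4 CPM), Ifi44 (110.9 CPM) and Bst2 (451 CPM), all from 13 cells. In other classes it was low for Bst2 (LMPP-like, 137 CPM) and Ifi35 (LMPP-like, 29.9 CPM, and myeloid progenitor-like, 20.7 CPM). The remaining mice were 72 h mouse 2 for Ifi44 (HSC-like, 33.9 CPM), 24 h mouse 2 for Samhd1 (HSC-like, 102 CPM), 3 h mouse 3 for Mx1 (LMPP-like, 62.3 CPM) and 24 h mouse 1 for Mx1 (erythroid progenitor-like, 6.01 CPM). In MK progenitor-like cells they were 72 h mouse 3 for Cmpk2 (12.4 CPM), 24 h mouse 1 for Samhd1 (40.4 CPM), 72 h mouse 1 for Ifi27l2a (12.7 CPM) and 72 h mouse 4 for Ly6e (335 CPM).

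The change against control differed from that in HSC-like cells in 10 comparisons, by the test of the difference itself. At 3 h these were Ifi44 in LMPP-like (1.12), myeloid (2.03), erythroid (3.31) and MK (1.59) progenitor-like cells, and Rsad2 (1.73) and Ly6e (-1.31) in myeloid progenitor-like cells, all as log2 differences. At 24 h they were Ifi44 in LMPP-like (1.43), myeloid (2.66) and erythroid (3.26) progenitor-like cells and Ifi27l2a in myeloid progenitor-like cells (1.71).

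Cells outside the class tests also carried the members. The summed CPM of the 9 members at 3 h, with control in parentheses, was 3389 (990) in hashtag multiplets and 3142 (1261) in hashtag-negative barcodes. It was 4671 (739) in unnamed cluster 7, 3621 (867) in cluster 10, led by cell cycle genes, and 3996 (1042) in cluster 11, which had Isg15 among its leading genes. In the basophil, mast cell and eosinophil progenitor-like cells it was 6091 (2392), from 9 cells at 3 h and 59 in control. The hashtag-negative values rest on 11 and 43 cells. Such sums weigh the abundant members most, as Ly6e (671 CPM) and Bst2 (184 CPM) had the highest means in the whole control compartment.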

How the results depend on the processing

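The counts of members called in the whole compartment (8, 5 and 0 higher at 3, 24 and 72 h, 7 lower from 3 to 24 h and 6 lower from 24 to 72 h) were the same under every alternative and without any single mouse. Of the values of single members, 28 lost their call under other settings and 24 without a mouse. The remaining 1111 and 2028 were called or not called as before, apart from 4 that changed sign without a mouse. Those 4 were all for Mx1 in the whole compartment at 72 h (range -0.75 to 0.33, main value -0.04). The 1111 and 2028 include whole-compartment values without a call. Class values without a call were not followed, so that calls gained there do not enter. With interferon genes kept for clustering, 11 lost their call and 74 did not. In HSC-like cells at 24 h, 3 members were called, against 1 with DESeq2 and 5 at a Leiden resolution of 0.5, and 2 to 5 without a mouse. In erythroid progenitor-like cells at 24 h, the count of 3 became 5 with DESeq2, with no filter on low counts and with the hashtag number as a replicate block, and 3 to 5 without a mouse. With interferon genes kept for clustering, 1 member in place of 2 differed between LMPP-like and HSC-like control cells. The members whose change at 3 h differed from HSC-like cells numbered 1 for LMPP-like cells (3 with no filter, 0 with interferon genes kept, 0 to 2 without a mouse). For erythroid cells there was 1 (3 with no filter, 2 with no mitochondrial limit, interferon genes kept, a resolution of 0.5 or cluster 9 alone as HSC-like, 1 to 2 without a mouse), and for MK cells 1 (0 with interferon genes kept, a resolution of 0.5 or cluster 9 alone, 0 to 1 without a mouse). The mean number of members per cell at control, 3, 24 and 72 h was 1.41, 4.27, 2.10 and 1.32 at 2500 UMIs per cell and 3.41, 7.03, 4.74 and 3.21 without thinning. Spearman's correlation kept 4 of 27 nearest genes. The cause of these shifts was not tested. Same-numbered mice of different libraries did not deviate together (mean r 0.018 over 24 pairs, -0.006 for other pairs). These values show no pairing of the mice by number but cannot exclude one. The replicate block moved no other count by more than 1.5 times. Depth limits Mx1, Rsad2 and Ifi44 in control classes with few cells.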
